A study of Mus musculus with 6 samples.

Results

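The 40 genes described here encode the unfolded protein response (UPR) and the folding machinery of the endoplasmic reticulum (ER), and were compared between control and HDAC1/2 intestinal epithelial cell (IEC)-specific deficient mouse colon. They comprise the stress sensors, the transcription factors below them, targets of ATF4 and CHOP, chaperones and co-chaperones, disulfide isomerases and oxidases, ER-associated degradation and the translocon. A gene was followed through the probe sets of an Affymetrix mouse genome array that carry its symbol alone. The brightest of these over the 6 arrays gives the values of the gene, and the others are described apart. All 40 were measured, out of 18193 genes on the array with a probe set of their own. The genes listed as Ero1l, Ero1lb and Selk are named Ero1a, Ero1b and Selenok in the annotation used here.

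By the paper, total RNA came from the colon of 3 control and 3 mutant mice. There are 3 arrays of each group, labelled wild type and HDAC1/2 KO. Mutant mice carried floxed Hdac1 and Hdac2 and a villin-Cre transgene, which acts in epithelial cells of the small intestine and colon, and the mice were untreated, on a normal diet and 4 months old by the paper. Whether controls carried floxed alleles or Cre is not given in the sources used here. By immunofluorescence in the paper, some crypts of the mutant epithelium still contained HDAC2 protein, so the mutant epithelium is a mosaic for that enzyme, and Cre is not driven outside the epithelium. The labels name colon epithelium, whereas the extraction protocol names the colon, and Myh11, a smooth muscle myosin, had a log2 signal of 13.13 in control and 12.55 in deficient colon beside the epithelial adhesion gene Epcam at 14.31 and 14.15. In such bulk RNA, fewer cells of a type and less RNA per cell cannot be told apart.

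When unfolded proteins accumulate in the ER, the sensors IRE1 (Ern1, and Ern2 in mucus-producing epithelium), PERK (Eif2ak3) and ATF6 are released from the chaperone BiP (Hspa5) and become active. IRE1 splices the Xbp1 transcript, ATF6 is cut by proteases to a free transcription factor, and PERK phosphorylates the initiation factor eIF2alpha, which slows translation while favouring that of ATF4. Their programmes raise chaperones, disulfide isomerases and ER-associated degradation, and in the intestine this system is known to be needed above all by goblet, Paneth and plasma cells, which secrete large amounts of protein. Much of the control lies after transcription, in splicing, cleavage and phosphorylation, which these arrays do not measure.

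The ER stress response element (ERSE) is the sequence through which ATF6 and XBP1 act on many chaperone genes, with NF-Y at its CCAAT part. It was searched as CCAAT, then 9 bases of any kind, then CCACG, on both strands of RefSeq promoter windows (GRCm38.p6) that run from 250 bases before to 50 bases after the annotated start. Of the 40 genes, 33 have a window in the table, with 34 windows in all, and 9 genes held an ERSE, in 26.5% of their windows against 0.119% of all 32851 windows. The element was first defined on chaperone promoters, Hspa5, Hsp90b1 and Calr among them, so its presence in those is no finding. The shorter ERSE-II, searched as ATTGG, 1 base of any kind and CCACG, was held by Dnajb11 and Herpud1 (5.88% of the windows, 0.0365% of all windows). The C/EBP-ATF response element (CARE), which ATF4 and CHOP recognise, was searched as TGAT directly followed by GCAA and was held by Chac1 and Herpud1 (5.88% of the windows, 0.895% of all windows). A UPR element searched as TGAC directly followed by GTGG was in 0 of the 34 windows and in 0.676% of all windows. No motif overlapped another in the windows of the 40 genes. Only exact matches were counted, so a window without a hit, as that of the ATF4 target Asns, may still hold a variant of an element. The stretches shown are the gene strand 5′ to 3′, with the motif in capitals and 20 bases on either side, for chaperone and degradation genes that rose, for 2 genes that hold an element and did not rise (Ero1b and Herpud1), and for Chac1. A motif on the opposite strand reads from its far end, as CGTGG to ATTGG.
Hspa5, ERSE, chr2:34772005-34772063, plus strand: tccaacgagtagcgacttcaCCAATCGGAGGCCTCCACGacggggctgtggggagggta
Creld2, ERSE, chr15:88819500-88819558, plus strand: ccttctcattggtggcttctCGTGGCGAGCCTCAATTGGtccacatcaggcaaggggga
Calr, ERSE, chr8:84847055-84847113, minus strand: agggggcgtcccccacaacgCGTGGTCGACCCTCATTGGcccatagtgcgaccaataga
Hsp90b1, ERSE, chr10:86705513-86705571, minus strand: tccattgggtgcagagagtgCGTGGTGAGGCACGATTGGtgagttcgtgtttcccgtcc
Syvn1, ERSE, chr19:6046512-6046570, plus strand: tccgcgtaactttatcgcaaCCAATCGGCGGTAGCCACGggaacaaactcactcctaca
Ero1b, ERSE, chr13:12565662-12565720, plus strand: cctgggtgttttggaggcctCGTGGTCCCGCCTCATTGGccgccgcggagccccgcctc
Herpud1, ERSE-II, chr8:94386357-94386407, plus strand: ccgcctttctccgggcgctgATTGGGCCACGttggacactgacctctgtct
Chac1, CARE, chr2:119351029-119351076, plus strand: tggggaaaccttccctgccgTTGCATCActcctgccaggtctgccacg
The motif began 65 bases before the start in Hspa5, 44 in Syvn1, 107 in Hsp90b1, 126 in Creld2, 162 in Calr, 201 in Ero1b, 52 in Herpud1 and 193 in Chac1. Hsp90b1 held a further ERSE 212 bases before the start, and Canx, Dnajc3 and Pdia6 held one at 145, 105 and 98 bases.

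The values are log2 signals, so a difference of 1 is a 2-fold change, and every fold change below is deficient over control. Each of 45037 probe sets was compared with limma, and a gene was counted as higher or lower at a Benjamini-Hochberg adjusted p under 0.05. The 3 arrays of a group differed little, with correlations of 0.9984 to 0.9988 across probe sets within a group against 0.9824 to 0.9828 between groups. The median SD over the 40 genes was 0.0385 on control and 0.035 on deficient arrays. Hdac1 fell by 1.30 (limma adjusted p = 1.06e-06), while Hdac2, whose probe sets were not placed relative to the deleted exons, differed by 0.05. All deficient arrays carried both Xist, a transcript of the inactive X chromosome of females, at 12.01, 11.99 and 12.06, and the Y-linked Eif2s3y at 8.32, 8.49 and 8.22, against 12.81 to 12.88 and 3.84 to 4.31 on control arrays. The sex of the mice is not given, nor is any pooling of RNA, so it is not known that each array holds RNA of 1 mouse. Xist together with a Y-linked transcript is not the pattern of 1 male or of 1 female, so the deficient arrays cannot be taken as RNA of 1 mouse each. Sex and genotype cannot be told apart here, and the p-values measure the spread between these arrays, which may be technical.

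In HDAC1/2 deficient colon 25 of the 40 genes were higher, 8 were lower and 7 did not pass. Among all genes the shares were 21.9% higher and 28.4% lower, and among the top 25% by mean signal, where 35 of the 40 lie, 31.3% and 39.5%. The median log2 fold change of the 40 was 0.27 against -0.02 for all genes. Most of the differences were small: 10 genes passed with a log2 fold change of at least 0.5 (7.63% of all genes) and 0 with one of -0.5 or less (9.34% of all genes), the largest being Creld2 at 1.22 and the lowest Pdia5 at -0.45. The 3 deficient values lay wholly above the 3 control values in 27 genes (26.9% of all genes) and wholly below in 10 (34.1% of all genes). Direction differed between roles. By their brightest probe sets all 4 sensor genes were lower, although Ern1 and Atf6 turned positive once their probe sets were averaged, 10 of 11 chaperone genes and all 3 translocon genes were higher, and the transcription factors were split.

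**Figure D1:**
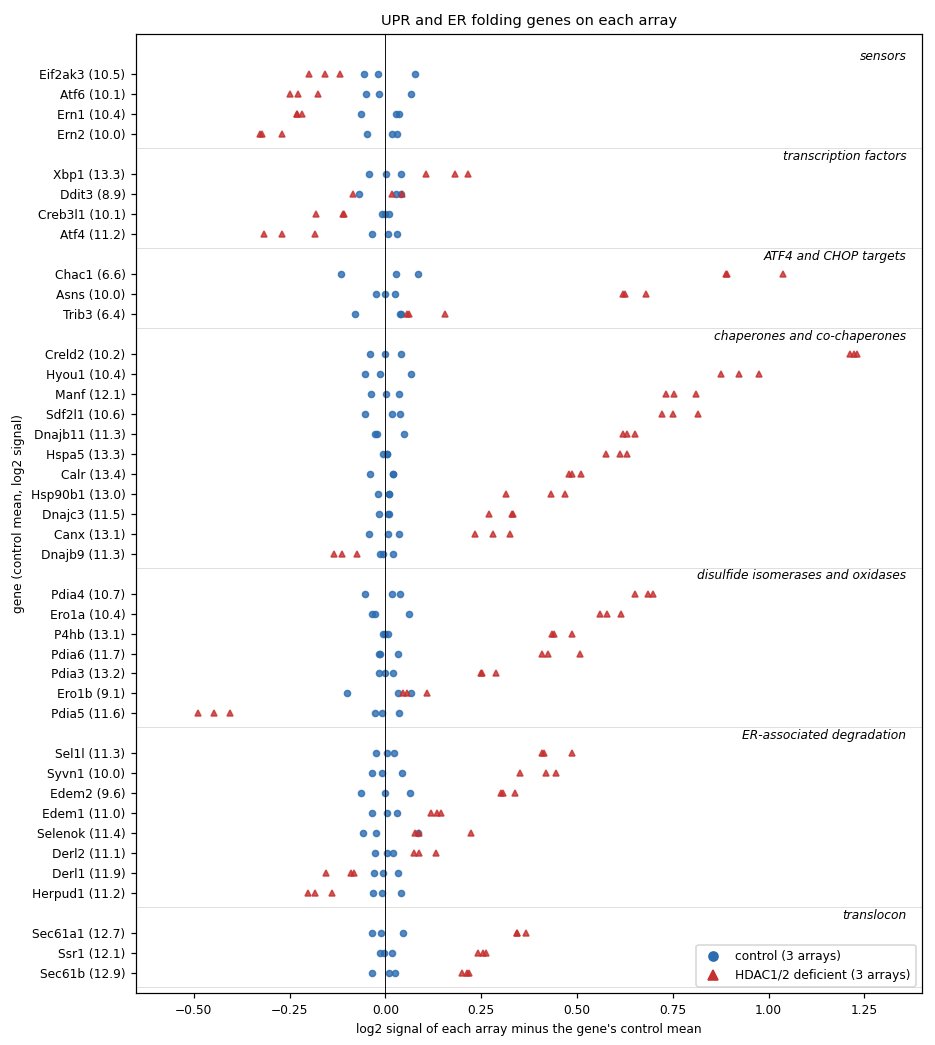
Log2 signal of each of the 6 arrays minus the gene's control mean (horizontal axis) for the 40 genes grouped by role, with the control mean in parentheses; circles are the 3 control and triangles the 3 HDAC1/2 deficient arrays. The chaperones extend to the right, up to a mean difference of 1.22 for Creld2, while the 4 sensors, by their brightest probe sets, lie to the left, with mean differences between -0.31 and -0.16.

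The brightest probe set of every sensor gene was lower, by modest amounts. Ern2, the IRE1 paralogue of mucosal epithelium, was at 10.02, 9.95 and 10.01 on control and 9.72, 9.67 and 9.67 on deficient arrays. The groups did not overlap (log2 fold change -0.31, SE 0.043, limma adjusted p = 9.05e-04). Ern1, which encodes the ubiquitous IRE1alpha kinase and endoribonuclease, had control values of 10.39, 10.40 and 10.30 and deficient values of 10.13, 10.13 and 10.15. Each deficient array was below each control array (log2 fold change -0.23, SE 0.044, limma adjusted p = 0.00458). Atf6, the membrane-bound transcription factor, went from 10.17, 10.09 and 10.06 to 9.86, 9.93 and 9.88. Again there was no overlap (log2 fold change -0.22, SE 0.048, limma adjusted p = 0.00814). Eif2ak3, which encodes PERK, was at 10.57, 10.44 and 10.47 in control and 10.34, 10.38 and 10.29 in deficient colon. It fell by 0.16 (SE 0.050, limma adjusted p = 0.0398), but did not pass without control replicate 1 or 3 (adjusted p = 0.117 and 0.0715) or without deficient replicate 1 or 3 (adjusted p = 0.0968 and 0.123).

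For Ern1 and Atf6 the direction depended on the probe set. Of the 5 probe sets of Ern1, the dimmest was higher in deficient colon (4.99, 4.74 and 4.67, with all deficient values above all control values, log2 fold change 0.30, limma adjusted p = 0.0202), and the other 3 did not pass. A second probe set of Atf6 was at 7.33, 7.04 and 7.26 in control and 7.68, 7.60 and 7.77 in deficient colon, a log2 fold change of 0.47 opposite to that of the brightest probe set. Averaged over their probe sets, Ern1 came to 0.06 (adjusted p = 0.227) and Atf6 to 0.14 (adjusted p = 0.0328). The other 2 probe sets of Eif2ak3 did not pass, and its average was -0.04 (adjusted p = 0.567). Ern2 has a single probe set.

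Transcription factors of the response did not move together. Xbp1, whose IRE1-spliced transcript encodes the active factor, was at 13.32, 13.28 and 13.36 on control and 13.54, 13.43 and 13.50 on deficient arrays. It was higher without overlap (log2 fold change 0.17, SE 0.047, limma adjusted p = 0.0248), and all 4 of its probe sets passed in that direction, between 0.13 and 0.17. The call was lost without control replicate 1 or 2 (adjusted p = 0.0625 and 0.0755) or deficient replicate 1 or 3 (adjusted p = 0.0910 and 0.0745). Spliced and unspliced Xbp1 were not distinguished. Atf4, the translationally controlled effector of PERK, had control values of 11.18, 11.14 and 11.20 and deficient values of 10.90, 10.99 and 10.86. Its transcript fell by 0.26 (SE 0.049, limma adjusted p = 0.00404), but the average of its 3 probe sets, at -0.08, did not pass (adjusted p = 0.149). Creb3l1, a membrane-bound factor related to ATF6 that is known from secretory cells, was at 10.11, 10.10 and 10.12 in control colon, and its 3 deficient values lay lower, between 9.93 and 10.01. This difference of -0.13 (SE 0.041, limma adjusted p = 0.0367) passed on all arrays and on no set from which 1 array was left out (adjusted p between 0.0626 and 0.0934). Ddit3, which encodes the pro-apoptotic factor CHOP, was at 8.90, 8.79 and 8.89 in control and 8.88, 8.91 and 8.78 in deficient colon. Its groups overlapped, and the difference of -0.01 had a 95% interval from -0.13 to 0.12.

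A pair of genes downstream of ATF4 and CHOP rose while the Atf4 and Ddit3 transcripts did not, and the proteins were not measured. Chac1, an enzyme that degrades glutathione, was at 6.52, 6.72 and 6.66 on control and 7.52, 7.67 and 7.52 on deficient arrays. All deficient values lay above all control values, a 1.92-fold rise (log2 fold change 0.94, SE 0.068, limma adjusted p = 2.74e-05). Asns, asparagine synthetase, went from 10.07, 10.02 and 10.05 to 10.67, 10.73 and 10.67. It was 1.56-fold higher (log2 fold change 0.64, SE 0.041, limma adjusted p = 1.60e-05). Trib3, a pseudokinase that dampens ATF4 activity, was at 6.41, 6.29 and 6.41 against 6.43, 6.53 and 6.43. The values did not overlap, yet the difference of 0.09 did not pass (limma adjusted p = 0.224, 95% interval -0.03 to 0.22). The average of its 2 probe sets passed as higher, at 0.10 (adjusted p = 0.0327).

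**Figure D2:**
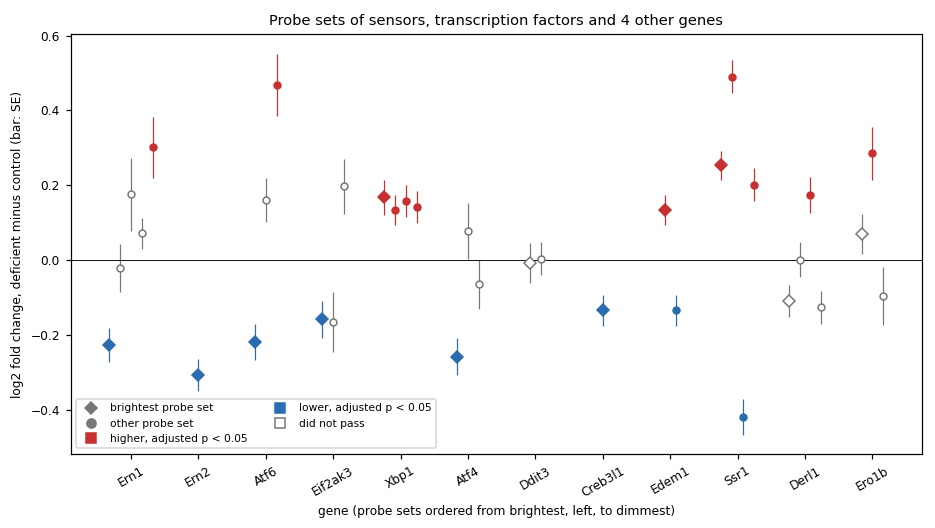
Log2 fold change with its standard error (vertical axis) of every probe set of the sensors, transcription factors and 4 further genes, ordered within a gene from brightest to dimmest signal; filled red and blue symbols passed as higher and lower. Probe sets of Xbp1 all lie between 0.13 and 0.17, whereas those of Ern1, Atf6, Edem1 and Ssr1 pass in both directions.

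Of the 11 chaperones and co-chaperones 10 were higher, with a median log2 fold change of 0.61. Creld2, an ER stress-inducible protein with EGF-like repeats that binds misfolded clients, had control values of 10.20, 10.16 and 10.24 and deficient values of 11.43, 11.42 and 11.43. The groups were far apart, with a 2.33-fold rise (log2 fold change 1.22, SE 0.041, limma adjusted p = 7.96e-07). Hyou1, the large HSP70-type chaperone and nucleotide exchange factor of BiP, went from 10.44, 10.33 and 10.37 to 11.35, 11.25 and 11.30. It rose 1.90-fold (log2 fold change 0.92, SE 0.050, limma adjusted p = 6.90e-06), and by 0.55 as the average of its 3 probe sets. Manf, a secreted and ER-retained factor that also binds BiP, was at 12.06, 12.02 and 12.10 in control and 12.81, 12.87 and 12.79 in deficient colon. Sdf2l1, which acts with the BiP co-chaperone ERdj3, was at 10.59, 10.51 and 10.61 and at 11.29, 11.39 and 11.32. Each rose 1.70-fold, with all deficient values above all control values (log2 fold changes 0.77 and 0.76, limma adjusted p = 8.96e-06 and 1.32e-05).

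Hspa5, which encodes BiP, the central chaperone and the brake on the sensors, was at 13.33, 13.32 and 13.33 on control arrays. On the deficient arrays its values were 13.91, 13.96 and 13.94, a 1.52-fold rise without overlap (log2 fold change 0.61, SE 0.039, limma adjusted p = 1.61e-05). Its 2 other probe sets gave 0.83 and 0.42. Dnajb11, the ERdj3 co-chaperone that brings clients to BiP, went from 11.26, 11.25 and 11.32 to 11.90, 11.93 and 11.91. That amounts to 1.55-fold (log2 fold change 0.63, SE 0.042, limma adjusted p = 1.82e-05). Hsp90b1, the HSP90 of the ER, had values of 13.00, 13.03 and 13.03 in control and 13.46, 13.34 and 13.49 in deficient colon. Its rise was 1.32-fold (log2 fold change 0.40, SE 0.051, limma adjusted p = 4.91e-04), but its second, dimmer probe set rose by 1.22 (limma adjusted p = 1.57e-05), and the average of both rose by 0.81. The lectin chaperones Calr and Canx, which hold glycoproteins until they are folded, were also higher, by 0.49 (limma adjusted p = 5.25e-05) and 0.28 (limma adjusted p = 0.00177). Calr was at 13.41, 13.41 and 13.35 against 13.88, 13.90 and 13.87. The other BiP co-chaperone genes differed from one another. Dnajc3, which encodes p58IPK, an inhibitor of PERK, was higher by 0.31 (limma adjusted p = 5.97e-04), whereas Dnajb9, which encodes ERdj4 and is a known target of XBP1, was at 11.34, 11.33 and 11.37 in control and 11.27, 11.21 and 11.23 in deficient colon. Dnajb9 did not pass limma, although it did with the methods' t-test after Benjamini-Hochberg adjustment (adjusted p = 0.0398) and all its deficient values were below all its control values (log2 fold change -0.11, 95% interval -0.20 to -0.01, limma adjusted p = 0.0707).

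Disulfide bonds are formed in the ER by protein disulfide isomerases, which the oxidases Ero1a and Ero1b recharge. Of these 7 genes 5 were higher, 1 was lower and 1 did not pass. Pdia4 (ERp72) was at 10.69, 10.76 and 10.78 on control and 11.43, 11.45 and 11.40 on deficient arrays. It rose without overlap (log2 fold change 0.68, SE 0.044, limma adjusted p = 1.61e-05), and by 0.32 as the average of its 2 probe sets. Ero1a went from 10.40, 10.39 and 10.49 to 11.04, 11.01 and 10.99. This was a 1.50-fold rise (log2 fold change 0.58, SE 0.045, limma adjusted p = 4.02e-05), and the values of its paralogue Ero1b overlapped, at 9.13, 8.97 and 9.10 against 9.12, 9.17 and 9.11. Ero1b differed by 0.07 (limma adjusted p = 0.363, 95% interval -0.06 to 0.20), although a dimmer probe set of it was higher by 0.29. P4hb, the founding disulfide isomerase, and Pdia6 were each higher by 0.45 (limma adjusted p = 6.82e-05 and 1.53e-04), and Pdia3, the isomerase that works with calnexin and calreticulin, was higher by 0.26 (limma adjusted p = 0.00115). Pdia5 moved the opposite way. It was at 11.60, 11.54 and 11.56 in control and 11.12, 11.16 and 11.08 in deficient colon, with every deficient array below every control array. The fall of 0.45 (SE 0.044, limma adjusted p = 1.26e-04) was the largest decrease among the 40 genes.

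Genes of ER-associated degradation, which returns misfolded proteins to the cytosol for the proteasome, were divided. The ubiquitin ligase Syvn1 (HRD1) and its partner Sel1l were higher, with means of 10.04 against 10.44 for Syvn1 and at 11.23, 11.26 and 11.28 against 11.67, 11.74 and 11.67 for Sel1l. Neither gene's groups overlapped (log2 fold changes 0.41 and 0.44, limma adjusted p = 2.66e-04 and 1.28e-04). The mannosidase-like Edem2 rose by 0.32 (limma adjusted p = 0.00113), and by 0.12 when its 2 probe sets were averaged, which did not pass (adjusted p = 0.0580). Edem1 was higher by 0.13 (limma adjusted p = 0.0323), but its second probe set was lower by the same amount, -0.13 (limma adjusted p = 0.0333), and their average differed by 0.00 (adjusted p = 0.998). Its call was lost without any 1 array other than control replicate 3, with adjusted p between 0.0740 and 0.0923. Herpud1, a scaffold of the ligase complex and a known stress-induced gene, was at 11.21, 11.19 and 11.26 in control and 11.02, 11.08 and 11.03 in deficient colon. Its values did not overlap and fell by 0.17 (SE 0.043, limma adjusted p = 0.0135, and 0.0545 without deficient replicate 1). Derl1 and Derl2, membrane proteins of the exit channel, and Selenok, an ER selenoprotein, did not pass, with differences of -0.11, 0.10 and 0.13 and limma adjusted p of 0.0845, 0.0956 and 0.132. A second probe set of Derl1 was higher by 0.18. After a further quantile normalization Derl1 passed as lower and Derl2 as higher (limma adjusted p = 0.0329 and 0.0472). With trend and robust eBayes, Derl1, Derl2 and Selenok all passed (limma adjusted p = 0.00446, 0.00992 and 0.0205). In the translocon, through which new chains enter the ER, Sec61a1 was higher by 0.35 (limma adjusted p = 3.50e-04), Sec61b by 0.21 (limma adjusted p = 0.00389) and Ssr1 by 0.25 (limma adjusted p = 0.00123). The brightest probe set of Ssr1 was at 12.10, 12.07 and 12.08 against 12.32, 12.34 and 12.34, whereas 1 of its other 3 probe sets was lower, at -0.42, and the average of all 4 rose by 0.13. For none of the 7 genes that did not pass did the 95% interval of the difference reach 0.5 in either direction.

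The 40 genes have 97 probe sets, and 29 have more than 1. Of the 57 probe sets beyond the brightest, 30 passed in the direction of the brightest one, 4 passed in the opposite direction (1 each of Ern1, Atf6, Edem1 and Ssr1) and 21 did not pass. The remaining 2 belong to Ero1b and Derl1, whose brightest probe sets did not pass.

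Set beside the promoter stretches shown for Hspa5 to Chac1, the 11 genes with an ERSE or ERSE-II included 9 that were higher, 1 that was lower (Herpud1) and 1 that did not pass (Ero1b), with a median log2 fold change of 0.41. The 22 genes whose windows held neither included 13 that were higher, 4 that were lower and 5 that did not pass, with a median of 0.19, and Pdia4, Sdf2l1 and Asns, among the largest rises, were in this group. It also holds sensor genes and ATF4 and CHOP targets, so these medians compare genes of unlike roles. The other 7 genes, with Hyou1 and Manf among them, have no window and are in neither group (3 higher, 3 lower and 1 that did not pass). Another 18 measured genes that are not among the 40 held 1 of these elements, of which 3 were higher (Derl3 at 0.60, Rcl1 at 0.52 and Spats2l at 0.27), 4 were lower and 11 did not pass, with a median of 0.02. These counts describe letters in a window and were not tested.

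Wider parts of the same pathways were counted over related gene lists, none of which holds any of the 40 genes, to be read against the 21.9% higher and 28.4% lower of all genes. Of 19 signal peptide and translocon genes 10 were higher and 1 was lower (median log2 fold change 0.14, range -0.35 to 0.51). Among them were the signal peptidase subunit Spcs3 at 0.43, the translocon-associated Ssr2 at 0.38 and Sec62 at -0.35. N-glycosylation showed 7 higher and 2 lower genes of 21 (median 0.05, range -0.97 to 0.64), including the oligosaccharyltransferase subunits Rpn2 at 0.41 and Tusc3 at -0.97. In 36 other isomerases and folding proteins there was no common direction, with 11 higher, 13 lower and 12 that did not pass (median -0.02). That list spanned Pdia2, an isomerase of the pancreas, at 2.43, Mzb1, a plasma cell chaperone, at 1.81, and Agr3, a goblet-type isomerase, at -1.81, while its goblet cell relative Agr2 differed by -0.02. Of 24 other ER-associated degradation genes 11 were lower and 7 higher (45.8% and 29.2%, median -0.10), a lean that all genes shared, with the lowest value in Tmub1 at -0.84 and the highest in Derl3 at 0.60. COPII coat and ER retrieval genes had 12 higher and 4 lower of 30 (median 0.06), with Sec23b at 0.60 and Tmed3 at -0.66. Among 19 other ER stress transducers 4 were higher and 9 lower (median -0.12), among them the protease of ATF6 Mbtps1 at -0.39, the ATF6 relative Creb3l4 at -0.53 and the pro-apoptotic Pmaip1 at -1.29.

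The integrated stress response list held mostly genes known to depend on ATF4, and also the eIF2alpha kinases other than PERK and eIF2alpha phosphatase subunits. It had 27 higher, 5 lower and 9 that did not pass, of 41 genes (median 0.32), so these are not counts of ATF4 targets alone. It included genes of serine synthesis, with Phgdh going from 9.12 to 11.33 (log2 fold change 2.21), Psat1 from 7.99 to 9.45 (1.46) and Shmt2, which turns serine into glycine, from 8.48 to 9.76 (1.28). The aminoacyl-tRNA synthetase genes Cars and Wars were higher by 0.96 and 0.92. Eif4ebp1, a translation repressor, was higher by 1.44, and the stress-inducible mTOR inhibitor Ddit4 was lower, at -0.89. The feedback phosphatase subunit Ppp1r15a (GADD34), a classic readout of the PERK arm, differed by 0.00 and did not pass.

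**Figure D3:**
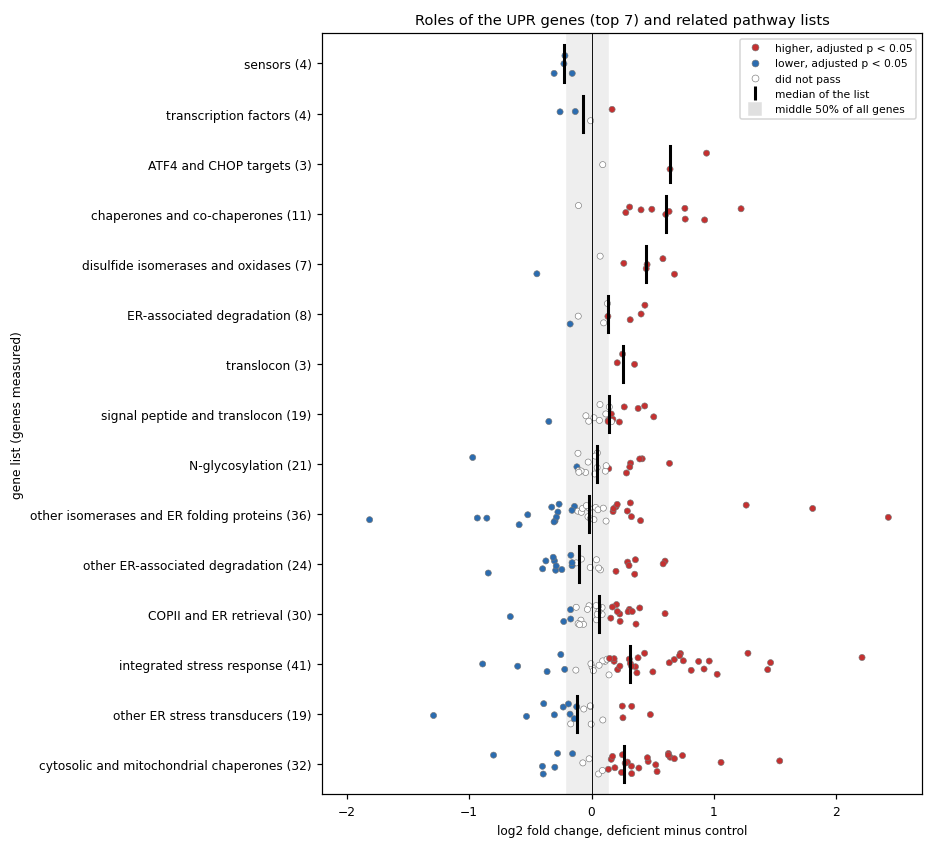
Log2 fold change of each gene (points, horizontal axis) in the 7 roles of the 40 genes and in 8 related pathway lists, with list medians as bars and the middle 50% of all genes (-0.20 to 0.13) shaded. Chaperones, ATF4 and CHOP targets and the integrated stress response lie mostly to the right, and the brightest probe sets of the sensors to the left.

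Markers of cell types that fold and secrete much protein also differed between the groups. All 11 plasma cell genes were higher (median log2 fold change 1.12), with the immunoglobulin genes Igk at 2.10 and Igha at 0.62, and the mean over the list was 9.06 to 9.13 on control and 10.17 to 10.24 on deficient arrays. Of 23 pancreatic acinar cell genes 18 were higher and 3 lower (median 2.43), with a list mean of 7.55 to 7.64 on control and 10.43 to 10.45 on deficient arrays, and the digestive enzyme genes Cpa1 and Cpb1 at 5.64 and 7.24. The acinar transcription factor genes Rbpjl and Ptf1a had log2 fold changes of -0.12, which did not pass, and 0.16, which did. Goblet cell genes went the other way, with 10 lower, 2 higher and 4 that did not pass of 16 (median -0.30, range -1.06 to 0.63). The mucin gene Muc2 differed by 0.08, without passing, and Tff3 by -0.38, and the list mean was 12.00 to 12.03 on control and 11.77 to 11.79 on deficient arrays. Paneth and deep secretory cell genes, 3 higher and 4 lower of 8, had a median of -0.30 and list means of 10.09 to 10.20 and 9.76 to 9.78, with differences from -2.86 in Ang4 to 2.29 in Pla2g2a. The general epithelial genes differed less, with 5 higher and 1 lower of 9 (median 0.12) and list means of 13.70 to 13.72 and 13.84 to 13.86. Markers of other cells differed as well: genes of smooth muscle were lower in 9 of 9 cases (median -0.51). Those of enteroendocrine cells were lower in 7 of 11 and higher in 1. By contrast, genes of B cells were higher in 8 of 9, of macrophages and dendritic cells in 8 of 10 and of T cells in 7 of 8. Fibroblast genes (3 higher and 5 lower of 9, median -0.25) and absorptive colonocyte genes (3 higher and 3 lower of 9, median -0.02) went both ways. None of the 40 genes is in these marker lists. Derl3 and Mzb1, named above, were also counted as plasma cell genes, and Pdia2 as an acinar gene. RMA values have no zero, so no marker can be called absent. The part of each cell type in the differences of the 40 genes was not tested.

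**Figure D4:**
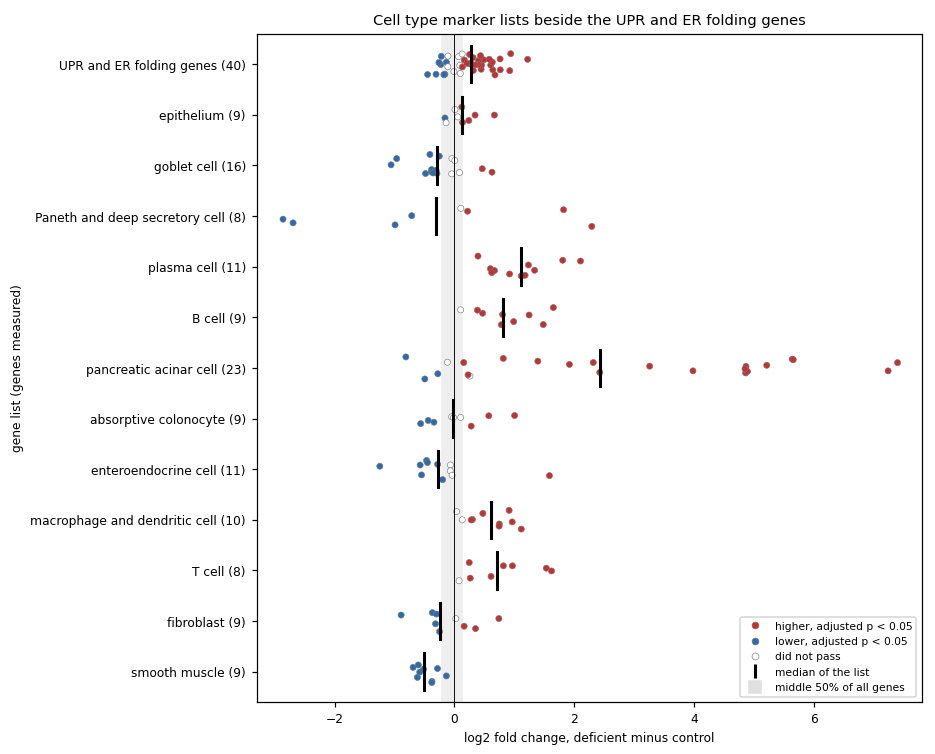
Log2 fold change of the 40 UPR and ER folding genes and of the genes in 12 cell type marker lists (points, horizontal axis), with list medians as bars and the middle 50% of all genes shaded. Plasma cell genes (median 1.12) and acinar genes (median 2.43) lie to the right of the 40 genes (median 0.27), and goblet cell genes (median -0.30) to the left.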

How the data were processed

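Affymetrix mouse genome arrays had been hybridized with RNA of control and mutant colon, 3 arrays per group. The authors deposited 1 log2 signal for each probe set, which they background-corrected and normalized by RMA in Flexarray, as the paper and the submitters' processing notes state. RMA compresses differences of dim probe sets. No batch information is given in the sources used here.

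Groups came from the sample titles. From 45101 probe sets the 64 controls were removed, and limma 3.58.1 (R 4.3.3) compared the groups on the remaining 45037 with lmFit and eBayes and without covariates. Benjamini-Hochberg adjustment covered all 45037. By the platform annotation 34945 probe sets have 1 symbol, 932 several and 9160 none, and only the first were named. The brightest probe set stands for its gene. Standard errors and 95% intervals are limma's, with 3 arrays per group. The scripts were tested on simulated data. Motifs were searched with Python 3.11.15 in RefSeq promoter windows, and figures drawn with matplotlib 3.10.9.

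The 40 genes, their roles and all lists were chosen with earlier results of these data known, so no count is independent support. All 40 genes are named. From the other pathway and marker lists, those named are mainly the 4 with the largest absolute change, and any other was picked after its values were seen or for its known role. Alternatives were the methods' t-test, other normalizations, filters, eBayes settings, array weights, probe set rules, a replicate block and leaving out each array. The coordinates of the Hdac2 deletion were not used here.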

Additional observations from a re-analysis of the deposited data

How the results depend on the processing

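Leaving out each array in turn gave 23 to 25 higher genes, 5 to 7 lower genes and medians of 0.2642 to 0.2781, with 5 lower genes without HDAC1/2 deficient replicate 1. Of the 33 genes that passed, 28 passed in each of these 6 fits, and Creb3l1, Edem1, Eif2ak3, Herpud1 and Xbp1 were lost in at least 1. When the probe sets of each gene were averaged, 25 genes were higher and 5 lower, the median was 0.2107, and Ern1 (0.0608) and Atf6 (0.1376) turned positive. Requiring an absolute log2 fold change of at least 0.5 left 10 higher and 0 lower genes, since no gene of the 40 fell that far. Without that limit, the methods' t-test at an unadjusted p under 0.05 gave 26 higher and 10 lower against limma's 25 and 8. The sample titles number the replicates and state no pairing. Deviations of same-numbered arrays correlated at 0.096, 0.064 and -0.026, and those of differently numbered arrays between -0.103 and 0.030. So few arrays cannot show whether the numbers pair them. With the replicate block, 24 genes were higher and 6 lower. Adjusted by Benjamini-Hochberg, the methods' t-test gave 25 and 6. Quantile normalization, median centring, array weights, a filter on dim probe sets, trend and robust eBayes, and leaving out shared-sequence probe sets gave 24 to 27 higher and 8 to 10 lower genes. Of the genes that passed, only Ern1 and Atf6 changed sign under any of these alternatives. Of those that did not pass, Ddit3 came to 0.0111 under quantile normalization and Derl1 and Selenok to 0.0013 and -0.0126 without shared-sequence probe sets. These scalings moved the median of all genes by 0.003 and -0.007. The small number of arrays limits the precision, and RMA hides how far dim signals such as the dimmest probe set of Ern1 (4.65) lie above background.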

Other observations

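Chaperones outside the ER were higher in HDAC1/2 deficient colon as well. Of 32 cytosolic and mitochondrial chaperone genes, 22 were higher, 6 were lower and 4 did not pass (limma, median log2 fold change 0.26), against 21.9% and 28.4% of all genes. Hsph1, the HSP110 nucleotide exchange factor, went from 10.67 to 12.21 (log2 fold change 1.54), Stip1, which links HSP70 to HSP90, from 9.11 to 10.17 (1.06), and the mitochondrial chaperonins Hspd1 and Hspe1 rose by 0.63 and 0.74. Among subunit genes of the TRiC chaperonin, Cct3 and Cct6a were higher by 0.46 each and Cct4 was lower, at -0.28. The lower genes of the list also included the small heat shock proteins Hspb1 at -0.30 and Hspb8 at -0.40 and the co-chaperone Dnajb4 at -0.80.

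Within the integrated stress response list, the transcription factor genes pointed in both directions. Atf5 was higher by 0.75 and Jdp2 by 0.73, while Cebpg, a dimer partner of ATF4, was at -0.36 and Nupr1, a stress-inducible chromatin protein, at -0.60. Among the other eIF2alpha kinases, Eif2ak4 (GCN2), the sensor of uncharged tRNA, was at -0.25, Eif2ak2 (PKR) at 0.15 and Eif2ak1 (HRI) at -0.13, of which the last did not pass. The amino acid transporter genes Slc7a5 and Slc7a1 were higher by 1.03 and 0.31, and Slc3a2, the partner of Slc7a5, differed by -0.01.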
